A study of Mus musculus with 8 samples.

Results

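The tumor-cell transcriptome of Lewis lung carcinoma was set against that of the whole tumor, to see which transcripts the host cells add. Of the 8 RNA sequencing libraries of the series, 4 entered the comparison as LLC 1 and LLC 2 against Total tumor 1 and Total tumor 2. LLC is a mouse lung carcinoma line, and here the cells carried the red fluorescent protein dTomato from a pCEFL vector, had been kept under G418, and grew as subcutaneous tumors in both flanks. All 4 groups share this line and host. The hosts were Col1a1-GFP transgenic mice, in which green fluorescent protein marks collagen-producing cells, and Alexa 647-labelled collagen was placed in the tumors on the day before sorting. The LLC group is the dTomato+ sort, and Total tumor is RNA of the tumor as a whole. The Fibroblast group (GFP+ cells) and the TAM group (dTomato-, GFP-, F4/80+, collagen+ cells, called M2-TAMs by the labels) have 2 libraries each and serve as references for host transcripts. The labels leave out the handling of whole tumors before RNA isolation, the strain, sex and age of the mice, and whether 2 libraries with the same group label stem from different animals. The p-values thus cover only the spread between the libraries at hand, which may be technical.

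A carcinoma grown in a host holds blood vessels, fibroblasts and infiltrating leukocytes beside the tumor cells, and its bulk RNA is a mixture of all of them. Neutrophils carry very large amounts of the calcium-binding proteins S100A8 and S100A9, inflammatory monocytes carry Ly6C, and connective tissue mast cells store chymases, tryptases and carboxypeptidase A in their granules. Monocytes that enter a tumor can mature into macrophages, which take up debris and present peptides on MHC class II. In RNA from a whole tissue, fewer cells of a type and less RNA per cell cannot be told apart.

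Values are RPKM (reads per kilobase of transcript per 1e6 reads), and differences are log2(RPKM + 1) in LLC minus Total tumor, a scale that understates the change of low genes. Estimated depth lay between 8.54 and 10.37 M reads in the libraries numbered 1 and between 4.28 and 4.72 M in those numbered 2, so depth moved with the replicate number. Total tumor 2 stood apart. Its deviation from each gene's mean fell with transcript length (Spearman's rho of -0.438 across 13098 genes, which are not independent replicates), against 0.247 in Total tumor 1, and its summed RPKM was 664084 against 462116. Over the 13311 genes tested, the log2 differences had a median of -0.03, and of 0.04 and 0.08 after upper-quartile rescaling and quantile normalization. LLC 2 held more macrophage transcripts than LLC 1, as given with those genes. The part of length, depth and carry-over in the results was not tested beyond the alternatives given with each group.

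The LLC libraries carried keratins but little of the rest of the epithelial program. Krt8 and Krt18, the keratins of simple epithelia, stood at 57.5 and 43.6 RPKM and at 122 and 82.8 RPKM in LLC 1 and LLC 2, against 39.5 and 70.8 and 86.6 and 230 in Total tumor 1 and 2. Epcam, an adhesion molecule of epithelial cells, was at 0 and 0.454 RPKM in LLC, and Cdh1, which encodes E-cadherin, at 0.022 and 0.423. Neither keratin passed the test (log2 -0.08 and -0.49, limma adjusted p = 0.983 and 0.837), and both log2 differences turned positive without Total tumor 2 (0.34 and 0.21), that of Krt8 also under rescaling and without LLC 2.

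The starting point for host transcripts was the pair S100a8 and S100a9 and the called mast cell proteases, whose levels in Total tumor exceeded those of all 6 sorted libraries. The stretches around their annotated starts, from 100 bases before to the 10th base of the transcript, are shown here because these genes stood apart together in the whole tumor. They are RefSeq sequences of GRCm38.p6, written 5′ to 3′ on the strand of the gene, with the letters TATAAA in capitals. S100a8 lies at chr3:90668971-90669080 (+), S100a9 at chr3:90695712-90695821 (-), Cpa3 at chr3:20242172-20242281 (-), Mcpt4 at chr14:56062301-56062410 (-) and Cma1 at chr14:55944666-55944775 (-).
S100a8: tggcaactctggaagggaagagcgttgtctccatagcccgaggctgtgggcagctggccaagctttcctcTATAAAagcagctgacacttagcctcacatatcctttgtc
S100a9: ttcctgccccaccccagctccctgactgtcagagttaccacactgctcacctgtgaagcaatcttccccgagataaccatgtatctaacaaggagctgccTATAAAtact
Cpa3: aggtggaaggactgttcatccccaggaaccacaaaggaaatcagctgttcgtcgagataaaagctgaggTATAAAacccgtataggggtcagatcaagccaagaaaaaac
Mcpt4: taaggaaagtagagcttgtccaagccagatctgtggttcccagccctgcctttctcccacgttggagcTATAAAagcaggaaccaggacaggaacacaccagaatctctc
Cma1: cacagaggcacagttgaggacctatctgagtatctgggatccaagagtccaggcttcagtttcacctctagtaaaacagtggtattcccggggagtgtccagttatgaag

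TATAAA, searched on both strands from 250 bases before to 50 after the start, was found in 13.6% of 32851 RefSeq promoters. It began at -30 in S100a8, at 1 (the annotated first base) in S100a9, at -31 and, on the other strand, -242 in Cpa3 and at -32 in Mcpt4, and Cma1 had no match. Of the other motifs searched on both strands, TTGCNNAA (10.8% of promoters) matched S100a9 at -236, GAGGAA (28.3%) matched S100a8 at -170 and -36, and GATAAG (7.44%) matched Mcpt4 at -102. A match describes the letters and is no evidence of a bound factor.

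Of 13311 genes tested, 306 were lower in LLC than in Total tumor (2.30%) and 7 were higher (0.0526%), or 313 in either direction (2.35%), by limma's test on all 8 libraries with Benjamini-Hochberg adjusted p under 0.05. Both LLC libraries lay below both Total tumor libraries for 17.4% of genes and above for 15.4%. Of the 306, 285 had their highest sorted mean in TAM (93.1%, against 28.8% of all genes tested), 20 in Fibroblast (6.54%, against 19.2%) and 1, the granzyme gene Gzmc, in LLC (0.327%, against 52.0%). For 258 of them (84.3%, against 19.6% of all genes) both TAM libraries exceeded both Total tumor libraries. For 30 (9.8%, against 2.61%) both Total tumor libraries exceeded all 6 sorted ones. These shares describe the called genes and are no test. LLC enters both the calls and the choice of the highest sorted mean, so a gene called lower in LLC seldom peaks there. This raises the shares left for the other sorted groups. Total tumor enters both the calls and the last 2 shares. Some called genes, among them Gzmc, Mcpt4 and Cxcr2, entered the test only through their Total tumor levels. Their calls are no independent support for a difference.

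The calls rested on the shared estimate of spread. Without LLC 1, Fibroblast 1, Fibroblast 2 or TAM 1, limma called 0 genes in either direction, with smallest adjusted p of 0.0751, 0.0857, 0.084 and 0.0503 and with 875, 1014, 1015 and 1079 genes lower and 159, 191, 193 and 227 higher at an unadjusted p under 0.05. Without TAM 2 it called 10 lower and 1 higher, without Total tumor 1 1492 and 928, without Total tumor 2 66 and 3, and without LLC 2 301 and 6. All 306 genes had a negative log2 difference under each of the 22 alternatives that tested them. These genes were chosen by that sign. Several alternatives, among them leaving out a Fibroblast or TAM library, keep a gene's LLC and Total tumor values, so its sign was fixed there. Every call of a gene or list below is subject to these losses, which are not repeated. Each count of called list members below is to be read against 2.30% lower and 0.0526% higher over all genes tested.

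**Figure D1:**
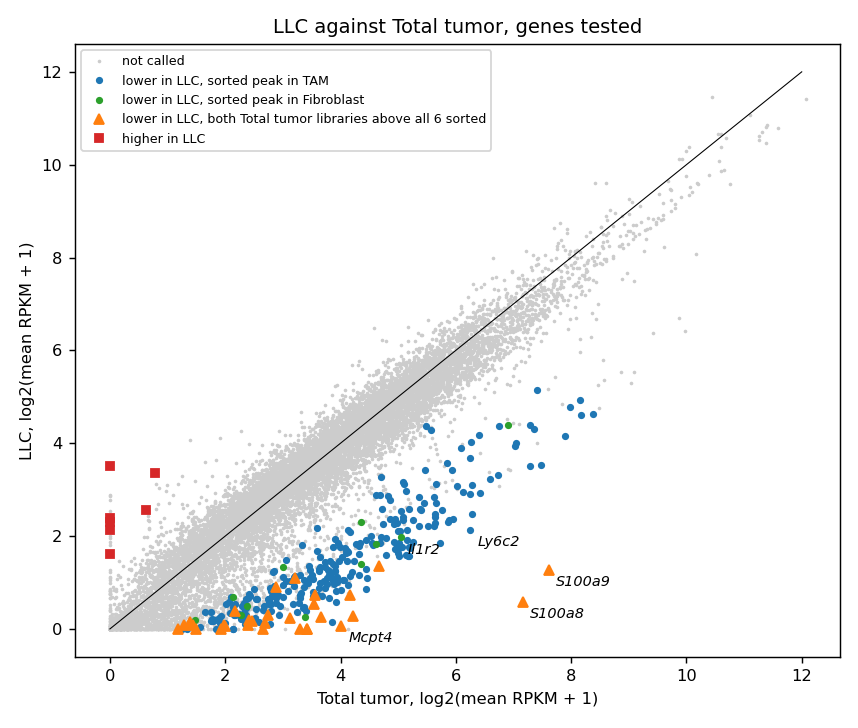
Mean level of each tested gene in Total tumor (horizontal, log2 of mean RPKM + 1) and LLC (vertical, same scale), with the line of equal level. Blue and green circles are genes called lower in LLC whose highest sorted mean is in TAM or Fibroblast, orange triangles are the 30 whose Total tumor libraries both exceeded all 6 sorted libraries, and red squares are the 7 called higher, which lie at low levels.

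The largest log2 differences among the called genes were those of S100a8 and S100a9. S100a8 (NM_013650) stood at 41.5 and 244 RPKM in Total tumor and at 0.992 and 0 in LLC, with 2.48 and 1.09 in Fibroblast and 15.1 and 13.2 in TAM. S100a9 (NM_009114), its partner in the calprotectin dimer, stood at 72.7 and 319 RPKM in Total tumor and at 0.558 and 2.25 in LLC, with 1.67 and 1.63 in Fibroblast and 17.8 and 14.3 in TAM. For both genes the lower Total tumor library lay above every sorted library, and Total tumor 2 was the highest of all. The log2 differences were -6.17 (SE 0.76) and -6.09 (SE 0.65), with limma adjusted p of 0.0217 and 0.019, and the adjusted p ran over the alternatives from 0.00584 to 0.269 and from 0.00585 to 0.269.

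Of 24 neutrophil genes listed, 15 passed the filter, which asked for 1 RPKM or more in 2 or more of the 8 libraries. Of these 15, 11 were lower in LLC and 0 higher (2.30% and 0.0526% of all genes tested). Cxcr2, the chemokine receptor that draws neutrophils into tissue, stood at 3.51 and 5.49 RPKM in Total tumor, 0.032 and 0.23 in LLC and at most 1.1 in any sorted library. Cxcr2 passed the filter only through its Total tumor levels, so its place among the 11 calls is no independent support for a difference. Hdc, the histamine-forming enzyme, which mast cells and basophils also carry, stood at 9.28 and 14.0 RPKM in Total tumor and 0.081 and 0.293 in LLC (log2 -3.39, SE 0.29, limma adjusted p = 0.0132). These genes too were highest in the whole tumor.

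Other members of the list had their peak in a sorted population. Csf3r, the receptor for granulocyte colony-stimulating factor, stood at 12.2 and 15.5 RPKM in Total tumor but 32.0 and 29.9 in TAM. Il1r2, a decoy receptor for interleukin-1, stood at 24.6 and 39.4 RPKM in Total tumor, 1.66 and 4.19 in LLC and 65.3 and 114 in Fibroblast. The summed RPKM of the list was 208 and 761 in Total tumor, 9.4 and 16.3 in LLC, 121 and 197 in Fibroblast and 164 and 149 in TAM. Of the 15 genes, 14 were called without Total tumor 1, 4 without Total tumor 2 and 8 without LLC 2.

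Mast cell proteases were present in the whole tumor and nearly absent from the LLC sort. Mcpt4 (NM_010779), a chymase, stood at 11.5 and 18.7 RPKM in Total tumor, 0.098 and 0 in LLC, 0.586 and 0 in Fibroblast and 3.56 and 0.68 in TAM (log2 -3.90, SE 0.50, limma adjusted p = 0.0224). Tpsb2 (NM_010781), a tryptase, stood at 8.13 and 27.0 RPKM in Total tumor, 0 and 0.431 in LLC, 1.33 and 0 in Fibroblast and 5.07 and 2.68 in TAM (log2 -3.74, SE 0.62, adjusted p = 0.0308). In each case the Total tumor libraries lay above all 6 sorted ones. Outside Total tumor, Mcpt4 reached 1 RPKM only in TAM 1, so it passed the filter only through its Total tumor levels. Its p-value is no independent support for a difference.

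Cma1 (NM_010780), another chymase, stood at 7.84 and 11.5 RPKM in Total tumor and was listed at 0 in both LLC libraries, with 0.898 and 0 in Fibroblast and 4.91 and 1.88 in TAM (log2 -3.39, SE 0.45, limma adjusted p = 0.0224). Cpa3, the granule carboxypeptidase, showed the same order, with 6.51 and 11.2 RPKM in Total tumor, 0 in both LLC libraries and 4.21 and 1.39 in TAM. These 4 were the called members among 6 of 10 mast cell genes that passed the filter. The tryptase gene Tpsab1 and Fcer1a, Ms4a2 and Kit did not pass, with at most 1.36 RPKM in Total tumor. Hpgds passed without a call and was highest in TAM, at 20.9 and 15.1 RPKM against 2.67 and 2.38 in Total tumor. Gata2, a transcription factor of mast cells and other lineages, was expressed by the tumor cells themselves, at 23.7 and 13.6 RPKM in LLC against 14.4 and 17.0 in Total tumor. Limma called 0 of the 6 when Total tumor 2 was left out, and 2 without LLC 2.

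**Figure D2:**
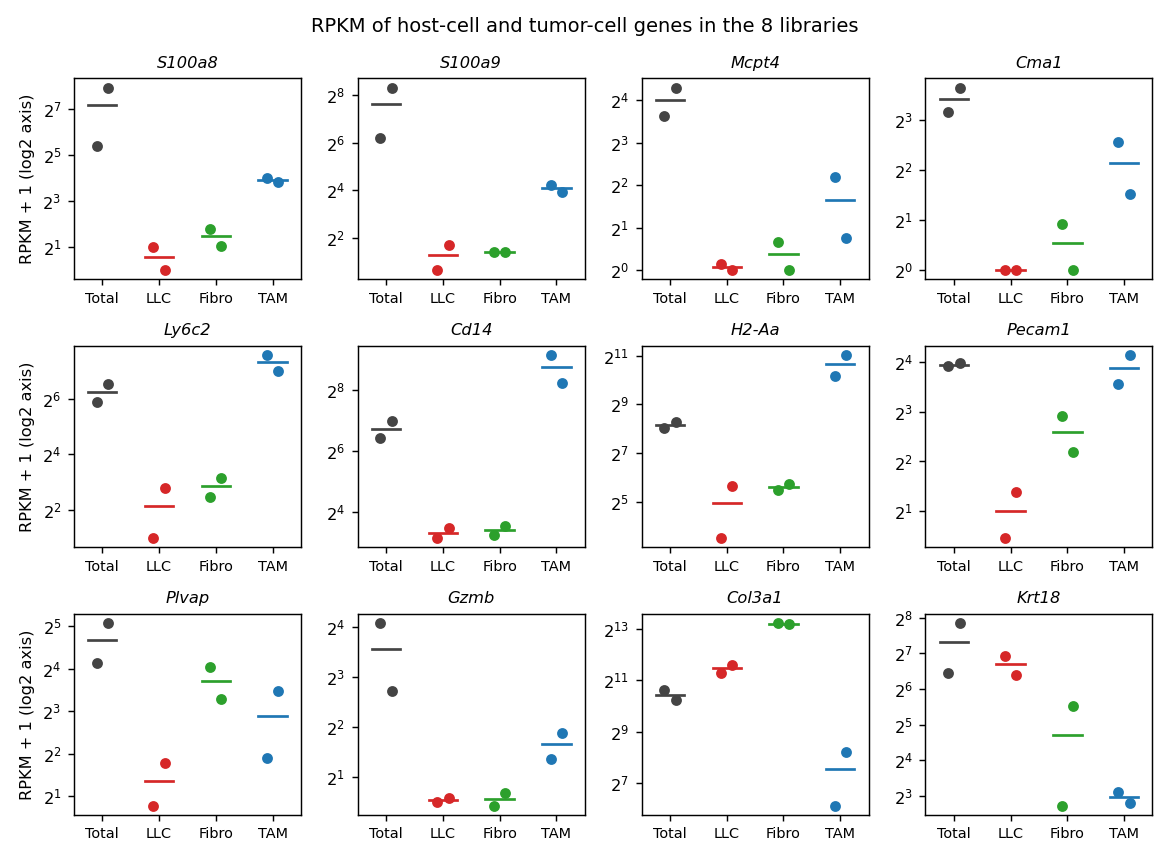
Level of 12 genes in the 8 libraries, as RPKM + 1 on a log2 axis, with 1 point per library and a line at the group mean. S100a8, S100a9, Mcpt4 and Cma1 were highest in Total tumor, Ly6c2, Cd14 and H2-Aa in TAM, Col3a1 in Fibroblast, while Krt18 overlapped between Total tumor and LLC.

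Of 15 monocyte genes, all tested, 5 were lower in LLC and 0 higher (2.30% and 0.0526% of all genes tested). Ly6c2 (NM_001099217), which marks inflammatory monocytes, was at 57.8 and 92.5 RPKM in Total tumor, 0.966 and 5.85 in LLC, 4.47 and 7.94 in Fibroblast and 190 and 128 in TAM. The Total tumor libraries lay between LLC and TAM, and LLC 2 lay between the Fibroblast libraries. Its log2 difference was -4.34 (SE 0.58, limma adjusted p = 0.0224, 0.0116 to 0.269 over the alternatives). The near-identical Ly6c1 stood at 57.5 and 84.5 RPKM in Total tumor, 29.3 and 57.9 in LLC and 971 and 1060 in Fibroblast, so reads shared by the 2 genes could move either value. The median over the 15 genes was -2.69. Ms4a4c (log2 -3.11), Chil3 (-2.79), Plac8 (-2.69) and Ly6c2 were among the calls. Plac8, however, was highest in Fibroblast, at 637 and 693 RPKM against 278 and 268 in TAM. Vcan, a matrix proteoglycan that monocytes also make, was higher in both LLC libraries (140 and 141 RPKM) than in both Total tumor libraries (89.3 and 57.2) without passing the test. Of the 15, 0 were called without Total tumor 2, 8 without Total tumor 1 and 10 without LLC 2.

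Of 24 macrophage genes, all tested, 5 were lower in LLC and 0 higher (2.30% and 0.0526% of all genes tested). Both LLC libraries lay below both Total tumor libraries for 23 of the 24 (17.4% of all genes), with a median of -3.20. Cd14, a co-receptor for bacterial lipopolysaccharide, stood at 85.4 and 124 RPKM in Total tumor, 7.91 and 10.1 in LLC and 556 and 295 in TAM (log2 -3.39, SE 0.35, limma adjusted p = 0.019). Aif1, an actin-binding protein of macrophages, and the high-affinity antibody receptor Fcgr1 were called at -3.40 and -3.34 (adjusted p = 0.0244 and 0.0292). The gene of the F4/80 antigen of the TAM gate, Emr1, stood at 18.7 and 25.1 RPKM in Total tumor but at 0.507 and 8.74 in LLC (log2 -2.57, adjusted p = 0.181). Csf1r, the receptor for macrophage colony-stimulating factor, gave -3.13 (adjusted p = 0.0598). Mertk, a receptor for apoptotic cells, was the exception, at 11.2 and 13.3 RPKM in LLC against 11.1 and 1.79 in Total tumor.

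The spread between the LLC libraries was large for these genes. Over 21 macrophage genes, the median level was 10.6% and 22.7% of the TAM level in Total tumor 1 and 2, 0.502% in LLC 1 and 2.97% in LLC 2. Of the 306 genes called lower in LLC, 256 were higher in LLC 2 than in LLC 1. The calls used these same LLC values, and the share over all genes tested was not computed. Without LLC 2, 19 of the 24 macrophage genes were called, without Total tumor 1 18 were lower and 1 higher, and without Total tumor 2 1 was. After a correction for transcript length 10 of 23 were called.

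MHC class II genes, which encode the peptide-presenting molecules of macrophages, dendritic cells and B cells, were measured next. H2-Aa stood at 259 and 308 RPKM in Total tumor, 10.4 and 48.4 in LLC and 1164 and 2068 in TAM (log2 -3.58, SE 0.63, limma adjusted p = 0.0357). Of 11 class II genes, all tested, 5 were lower in LLC (2.30% of all genes tested), among them H2-Ab1 (-3.62, adjusted p = 0.0465) and H2-Eb1 (-3.30, adjusted p = 0.0499). Cd74, the invariant chain, stood at 631 and 744 RPKM in Total tumor and 20.6 and 145 in LLC and was not called (-3.61, adjusted p = 0.0715). Leaving out Total tumor 2 gave 1 call among the 11, and so did the length correction.

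Some secreted signals of myeloid cells were higher in the whole tumor. Il1b, the inflammatory cytokine interleukin-1β, stood at 85.0 and 69.0 RPKM in Total tumor and 2.91 and 6.18 in LLC (log2 -3.87, SE 0.42, limma adjusted p = 0.019). Of 25 chemokines, all tested, 5 were lower in LLC and 0 higher (2.30% and 0.0526% of all genes tested), with a median of -1.33. The neutrophil attractant Cxcl3 (-3.70, adjusted p = 0.0224) and the macrophage inflammatory proteins Ccl3 (-3.54, adjusted p = 0.0284) and Ccl4 (-2.95, adjusted p = 0.0488) led. Ccl3 stood at 59.0 and 57.3 RPKM in Total tumor, 4.04 and 4.15 in LLC and 387 and 126 in TAM.

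The tumor cells expressed other chemokines at the level of the whole tumor. Ccl2, the main attractant of monocytes, stood at 383 and 263 RPKM in LLC and 326 and 421 in Total tumor, and Ccl7 at 118 and 92.0 against 102 and 172. Ccl11, which attracts eosinophils, was higher in both LLC libraries (102 and 98.0 RPKM) than in both Total tumor libraries (50.4 and 39.2) without a call. Of the 25, 0 were called without Total tumor 2 and 8 without Total tumor 1.

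The remaining genes of largest difference were also of leukocytes. Srgn, the proteoglycan of secretory granules, stood at 196 and 471 RPKM in Total tumor and 5.66 and 41.9 in LLC (log2 -4.17, SE 0.81, limma adjusted p = 0.0467). The lectin receptor Clec4d (-4.06, adjusted p = 0.0354), Wfdc17 (-3.96, adjusted p = 0.0224), the leukocyte actin regulator Coro1a (-3.96, adjusted p = 0.0267) and the inhibitory receptor Lilrb4 (-3.79, adjusted p = 0.0325) followed. Pf4 and Ppbp, chemokines first known from platelets, were lower in LLC at -3.74 and -3.54 (adjusted p = 0.0392 and 0.0201), but were highest in TAM, while the defining platelet gene Gp9 was listed at 0 in all 4 libraries and Itga2b stood at 1.14 and 2.61 RPKM in Total tumor and 2.06 and 1.91 in LLC. Complement gave 2 called members of 17, the receptor C5ar1 (-3.50) and properdin, Cfp (-3.01), but 6 lower and 2 higher without Total tumor 1, 6 lower without LLC 2 and 0 without Total tumor 2. Hcar2, a receptor for hydroxy-carboxylic acids, stood at 13.9 and 20.1 RPKM in Total tumor, 0.741 and 0.598 in LLC and 10.8 and 11.9 in TAM (-3.41, adjusted p = 0.0136).

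Lymphocyte transcripts were low and differed between the Total tumor libraries. Gzmb, the cytotoxic protease granzyme B, stood at 15.8 and 5.55 RPKM in Total tumor, 0.409 and 0.495 in LLC and at most 2.69 in the other sorted libraries (log2 -2.85, SE 0.45, limma adjusted p = 0.0284). The cytotoxic granule protein Nkg7 (-2.29, adjusted p = 0.0352) and Foxp3, the transcription factor of regulatory T cells (-2.01, adjusted p = 0.0362), were also lower in LLC. The Foxp3 levels in TAM (8.12 and 6.25 RPKM) overlapped those in Total tumor (4.78 and 7.13). In all, 5 of the 15 T and NK cell genes that passed the filter were called lower (2.30% of all genes tested), of 25 in the table. Cd3e, a chain of the T cell receptor complex, stood at 9.23 and 1.33 RPKM in Total tumor and 0.539 and 0.489 in LLC and was not called (-1.69, adjusted p = 0.415). Without Total tumor 2 2 of the 15 were called, after the length correction 3, and without LLC 2 1.

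Among the LLC and Total tumor libraries, B cell transcripts were found mainly in Total tumor 1, but TAM held them too. Summed RPKM of the B and plasma cell genes was 103.3 and 6.8 in Total tumor and 2.8 and 4.2 in LLC. It was 34.0 and 50.5 in Fibroblast and 93.9 and 36.0 in TAM. Cd79a, a chain of the B cell receptor, stood at 16.0 and 0.16 RPKM in Total tumor and 14.9 and 4.05 in TAM. All 15 B and plasma cell genes and 24 of 25 genes of T and NK cells had a higher level in Total tumor 1 than in Total tumor 2 (the exception was Foxp3), against 49.6% of all genes tested. In contrast, 18 of 22 neutrophil genes and 19 of 24 macrophage genes were higher in Total tumor 2, against 50.4% of all genes tested. Of 13 B and plasma cell genes that passed, the Fc receptor-like gene Fcrla alone was called (-1.89, adjusted p = 0.0224), and it was not called after the length correction or without LLC 2. Leaving out Total tumor 2 gave 3 calls.

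Of 18 endothelial genes tested, 4 were lower in LLC and 0 higher (2.30% and 0.0526% of all genes tested). Pecam1, an adhesion molecule of endothelium and also of leukocytes, stood at 14.0 and 14.7 RPKM in Total tumor, 0.38 and 1.63 in LLC, 6.51 and 3.58 in Fibroblast and 10.8 and 16.5 in TAM (log2 -3.01, SE 0.41, limma adjusted p = 0.0224). Plvap, which forms the diaphragms of vessel fenestrae, stood at 16.6 and 32.5 RPKM in Total tumor, 0.717 and 2.43 in LLC, 15.3 and 8.80 in Fibroblast and 2.73 and 10.1 in TAM (-3.32, SE 0.61, adjusted p = 0.0395). The transcription factor Sox18 (-2.54, adjusted p = 0.0356) and the sialomucin Emcn (-2.44, adjusted p = 0.0468) were the other calls, and 24 endothelial genes were listed in all. Plvap, Sox18 and Emcn were higher in both Total tumor libraries than in all 6 sorted ones.

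Cdh5, the cadherin of endothelial junctions, stood at 10.1 and 5.37 RPKM in Total tumor and 0.363 and 1.35 in LLC and was not called (-2.23, adjusted p = 0.0726). Ramp2, a subunit of the adrenomedullin receptor, was expressed in the LLC sort at 41.0 and 24.97 RPKM against 18.0 and 38.1 in Total tumor. Summed endothelial RPKM was 124 and 184 in Total tumor, 60.0 and 46.9 in LLC, 249.1 and 224 in Fibroblast and 25.9 and 66.5 in TAM. Without Total tumor 2 0 of the 18 were called, without Total tumor 1 9, after the length correction 7 and without LLC 2 1. Of 13 pericyte and smooth muscle genes tested limma called 0, with 5 lower and 0 higher at an unadjusted p under 0.05. Rgs5, a pericyte marker, stood at 6.70 and 1.53 RPKM in Total tumor and 0.639 and 2.19 in LLC (-0.95, adjusted p = 0.645).

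Fibroblast genes held no call. Of 26 listed genes, 24 were tested, and limma called 0 in either direction (0 lower and 3 higher at an unadjusted p under 0.05), while after the length correction 1 was higher. Both LLC libraries lay below both Total tumor libraries for 5 of the 24 (17.4% of all genes) and above for 7 (15.4%), so the count below is near the background. Col1a1, a chain of type I collagen whose promoter drives the GFP of the hosts, stood at 257 and 206 RPKM in Total tumor and 76.2 and 192 in LLC (log2 -0.92, adjusted p = 0.719). Col3a1, the type III collagen, went the other way, at 1568 and 1199 RPKM in Total tumor, 2507 and 3142 in LLC and 9618 and 9421 in Fibroblast (1.03, SE 0.75, adjusted p = 0.687). Dcn, the collagen-binding proteoglycan decorin, stood at 406 and 375 RPKM in Total tumor and 605 and 961 in LLC (0.97, adjusted p = 0.679), and Pdgfra, a growth factor receptor of mesenchymal cells, at 33.1 and 15.2 against 40.0 and 51.3 (0.98, adjusted p = 0.513).

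The level of fibroblast genes in the whole tumor was a small part of that in sorted fibroblasts. Over 24 genes, the median level was 6.6% and 5.78% of the Fibroblast level in Total tumor 1 and 2, and 4.15% and 5.65% in LLC 1 and 2. The upper quartiles in LLC were 40.8% and 45.6%, and above both lay Lum, the collagen-binding proteoglycan lumican, at 434 and 422 RPKM in LLC, 229 and 218 in Total tumor and 617 and 666 in Fibroblast. Of 40 collagen genes 24 were tested and limma called 0, with 1 lower and 0 higher at an unadjusted p under 0.05. Both LLC libraries lay above both Total tumor libraries for 10 of the 24 (15.4% of all genes), and below for 3, among them Col1a1.

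**Figure D3:**
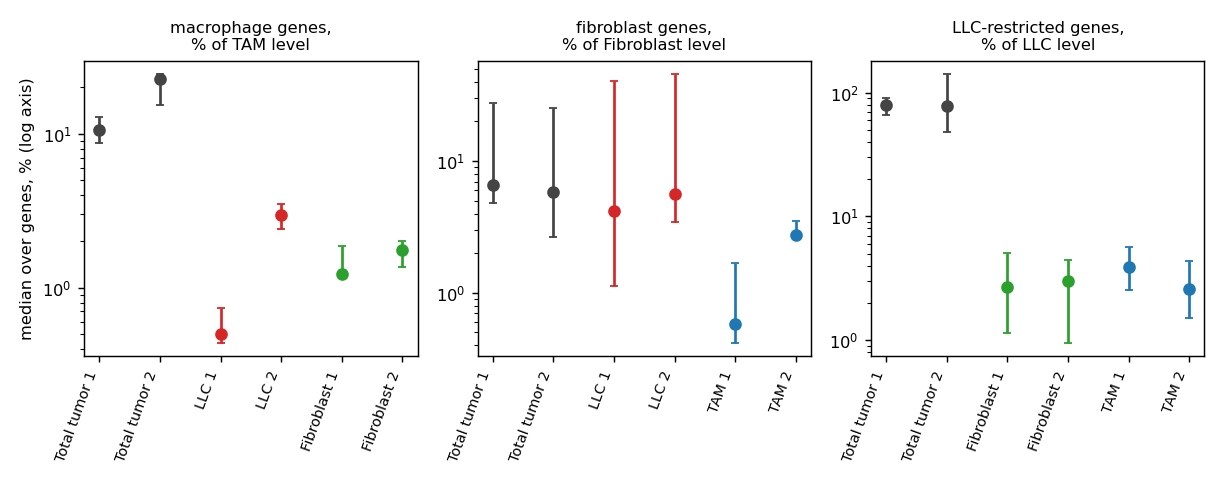
Median level in each library as a percentage of a sorted reference (log axis), for 21 macrophage genes against TAM, 24 fibroblast genes against Fibroblast and 47 genes restricted to LLC against LLC. Bars run from the lower to the upper quartile over genes. Total tumor stood at 10.6% and 22.7% for macrophage genes, at 6.6% and 5.78% for fibroblast genes and at 79.5% and 78.8% for LLC-restricted genes.

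Genes restricted to the tumor cells among the sorted populations were also followed in the whole tumor. There were 47 genes of at least 10 RPKM in both LLC libraries and at least 10-fold above every Fibroblast and TAM library, a choice that used the same LLC levels against which the percentages below are taken, so they are a description with no test. Their median level in Total tumor was 79.5% of the LLC mean in Total tumor 1 (quartiles 66.1 and 91.1%) and 78.8% in Total tumor 2 (quartiles 48.5 and 141%). Dkk2, a secreted regulator of Wnt signals, stood at 105 and 121 RPKM in Total tumor and 164 and 202 in LLC, so that its levels did not overlap. Hmga2, an embryonic chromatin protein often re-expressed in tumors, stood at 89.7 and 70.3 against 87.9 and 90.9. Stc1, the hormone stanniocalcin, stood at 44.7 and 34.3 against 68.7 and 96.2. Peg3, a long transcript of an imprinted gene, stood at 28.3 RPKM in Total tumor 1 but 0.256 in Total tumor 2, against 26.5 and 47.5 in LLC. The imprinted noncoding RNA H19 stood at 51.1 and 147 RPKM in Total tumor and 133 and 373 in LLC, with the groups overlapping (log2 1.35, SE 0.61, adjusted p = 0.512). Dkk2, Hmga2, Stc1 and Peg3 were chosen after their values were seen.

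The 7 genes called higher in LLC were short noncoding transcripts with few reads, except for 2310010J17Rik, which is noncoding but longer. The mature microRNAs of 4 of the 5 microRNA genes are printed because they are the calls in this direction. They are RefSeq sequences of GRCm38.p6 with the seed (bases 2 to 8) in capitals, and no seed is shared.
mmu-miR-23a-5p: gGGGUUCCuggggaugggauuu
mmu-miR-23a-3p: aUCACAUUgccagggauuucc
mmu-miR-3473c: uCUCUCCAgcccccauaauaag
mmu-miR-6369: uGGCUCAGuucaguguuggugag
mmu-miR-6956-5p: uGAGUGGGugggacuggccu

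Both arms of miR-23a lie at chr8:84208527-84208548 and chr8:84208563-84208583 on the plus strand, miR-3473c at chr1:191998602-191998623 (-), miR-6369 at chr13:58313119-58313141 (-) and miR-6956-5p at chr15:79002231-79002250 (+). The libraries were primed with oligo-dT, and mature microRNAs carry no poly(A) tail. Mir23a stood at 5.19 and 15.7 RPKM in LLC, 4.73 and 3.01 in TAM and 0 in both Total tumor libraries (log2 3.35, SE 0.46, limma adjusted p = 0.0224). This was an estimated 4.04 and 5.04 reads. Mir6956 (2.39, adjusted p = 0.0136), Mir1949 (2.70, adjusted p = 0.0253), Mir6369 (2.04, adjusted p = 0.0284) and Mir3473c (1.55, adjusted p = 0.0447) rested on an estimated 1.01 to 6.06 reads per LLC library. Mir6956, Mir6369 and Mir3473c were listed at 0 in every library outside LLC. Mir1949 reached 1 RPKM outside LLC only in Total tumor 1, at 1.45 RPKM. Without the LLC libraries none of Mir6956, Mir6369, Mir3473c and Mir1949 would have passed the filter. Their p-values are thus no independent support for a difference.

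Snord58b, a small nucleolar RNA (2.31, limma adjusted p = 0.0141), was also listed at 0 outside LLC and passed the filter through LLC alone. It had an estimated 2.46 and 1.23 reads. 2310010J17Rik had the most, 13.7 and 12.6 in LLC against 2.28 and 1.14 in Total tumor (1.86, adjusted p = 0.0459). Of 223 microRNA genes tested 5 were higher and 2 lower. Of the 223, 49 and 158 were listed at 0 in Total tumor 1 and 2, and 52 and 110 in LLC 1 and 2. In Fibroblast 1 and 2 the counts were 90 and 119, and in TAM 1 and 2 they were 117 and 124. The libraries numbered 2 had the lower depth, but the part of depth in these zeros was not tested.

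Antigen processing and housekeeping programs were measured as well. Of 19 MHC class I genes, all tested, 3 were lower in LLC (2.30% of all genes tested), with a median of -0.74. H2-Q7, a nonclassical class I molecule, stood at 15.8 and 19.9 RPKM in Total tumor and 1.62 and 1.86 in LLC (log2 -2.77, SE 0.25, limma adjusted p = 0.0132), and the immunoproteasome subunits Psmb8 (-2.17, adjusted p = 0.03) and Psmb9 (-1.98, adjusted p = 0.0292) were also called. H2-Q7 has near-identical neighbours such as H2-Q6, so its value is uncertain. B2m, the shared light chain, stood at 2232 and 3148 RPKM in Total tumor and 2013 and 1691 in LLC. Without Total tumor 1 8 of the 19 were called, and after the length correction 5.

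Of 24 interferon-stimulated genes, all tested, Mx1, an antiviral GTPase, was the only call (19.4 and 13.5 RPKM in Total tumor, 2.36 and 4.41 in LLC, log2 -2.01, limma adjusted p = 0.0352), with a median of -0.22 over the list. Without Total tumor 2 it was not called, and without Total tumor 1 3 genes were lower and 1 higher. Cxcl10 stood at 53.3 and 51.4 RPKM in Total tumor and 43.5 and 42.3 in LLC. Of 32 cell cycle genes, all tested, limma called 0 (3 lower and 0 higher at an unadjusted p under 0.05), with a median of -0.26, and without Total tumor 1 it called 1 lower and 1 higher. The proliferation marker Mki67 stood at 54.4 and 17.0 RPKM in Total tumor and 37.4 and 30.9 in LLC, and Ube2c, an enzyme of mitotic exit, at 116 and 182 against 90.2 and 53.7.

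Ribosomal protein genes turned with the Total tumor library. Their summed RPKM was 14767 and 39666 in Total tumor and 21591 and 16400 in LLC. Limma called 0 of 82 tested (2 lower and 0 higher at an unadjusted p under 0.05), and over these the median was -0.38, but 0.31 without Total tumor 2 and -0.98 without Total tumor 1, with 29 called lower. Oxidative phosphorylation genes had 0 of 79 called (2 lower and 0 higher at an unadjusted p under 0.05), with 34 called lower without Total tumor 1. These short transcripts were higher in Total tumor 2 than in Total tumor 1 in 78 of 83 and 74 of 78 cases, against 50.4% of all genes tested. Total tumor 2 is the library whose levels fell with length. After the length correction the medians were -0.07 and -0.17. The cause of the difference between the Total tumor libraries was not tested.

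Among the 33 lists, 14 held called members and 19 held none. Over those 19 lists, which share some genes, 402 members were tested and limma gave 25 lower and 4 higher at an unadjusted p under 0.05. They include the lists of eosinophil, lymphatic endothelial, erythroid, skeletal muscle, adipocyte, keratinocyte, nerve and epithelial genes. Dendritic cell genes gave 2 called members of 12 tested, the transcription factor Irf8 (-2.62, adjusted p = 0.0284) and the NK receptor subunit Klrd1 (-2.10, adjusted p = 0.0468), and 0 without Total tumor 2, while Clec9a, a receptor of cross-presenting dendritic cells, stood at 5.23 and 5.38 RPKM in LLC against 5.09 and 3.88 in Total tumor. Ptprc, which encodes the leukocyte antigen CD45, stood at 36.5 and 10.8 RPKM in Total tumor and 1.01 and 5.20 in LLC and was not called (-2.58, adjusted p = 0.12). Genes induced by tissue dissociation, which could separate sorted cells from whole tissue, gave 0 calls of 26 by limma (2 lower and 0 higher at an unadjusted p under 0.05), and their summed RPKM was 2660 and 1496 in Total tumor and 2256 and 1617 in LLC. Their median was -0.30, but 0.14 without Total tumor 1, with 1 lower and 5 higher, and 0.16 without LLC 2, while without Total tumor 2 it was -0.59, with 1 lower.

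**Figure D4:**
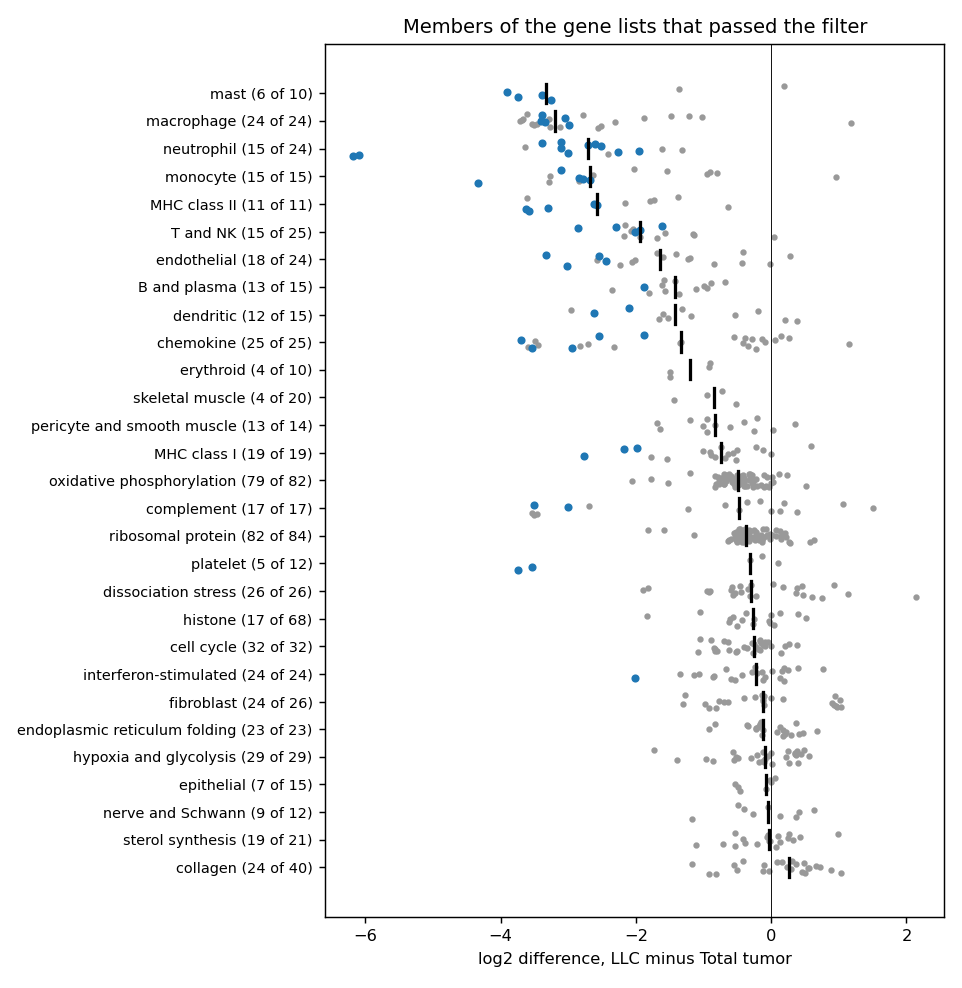
Log2 difference, LLC minus Total tumor, of each member that passed the filter in lists with at least 4 such members (1 point per gene, numbers passed and listed in parentheses), with a bar at the median. Blue points were called lower in LLC, and most lie in the leukocyte, mast cell, endothelial and MHC class II lists, while fibroblast, collagen and cell cycle genes held no call.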

How the data were processed

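RNA of 8 libraries was sequenced after oligo-dT cDNA synthesis, per the labels' protocols. The deposited table holds RPKM values that the authors computed for 31645 RefSeq transcripts. STAR, HOMER and the mouse build mm9 are named, per the submitters' processing notes, without versions. Not given in the sources used here are read totals, filters and strand.

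The 3 unnamed transcripts (at most 0.00316% of a library's summed RPKM) were left out, and for the 4341 symbols with several transcripts the one with the highest mean was kept, leaving 23952 symbols. The 13311 genes reaching 1 RPKM in 2 or more libraries were tested on log2(RPKM + 1), without rescaling, with limma 3.58.1 in R 4.3.3. One fit over the 4 groups with a variance trend left 4 degrees of freedom, with 3.62 added by the prior. A gene was called at a Benjamini-Hochberg adjusted p under 0.05. Summaries used Python 3.11.15 with pandas 2.3.3, and the fit was tested on simulated data. Depth was estimated from low values, of which 57.5 to 62.2% lay within 0.05 of whole reads, so no count test was run.

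Lengths were matched by RefSeq accession for 97.4% of transcripts. Printed sequences and their coordinates are GRCm38.p6, not the files' build, and coordinates of the genes' measured models are not given.

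Named genes are the 12 largest called differences in each direction (without overlap, and averaging 10 RPKM or more on the higher side), S100a8, S100a9, Ly6c2 and a set of defining genes, up to 3 called members per list, and up to 10 genes with Total tumor above all sorted libraries. All 7 genes higher in LLC are named. Of the genes this rule takes, 2 are not reported here. Other list members are illustrations chosen after their values were seen. Members and lists were chosen with earlier results of these data known. Alternatives were other pseudocounts, filters, scalings, fits, transcript choices, a length correction and leaving out each library.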

Additional observations from a re-analysis of the deposited data

How the results depend on the processing

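The counts of genes lower and higher in LLC (306 and 7) were recomputed under 22 alternatives. The lower count stayed within 1.5 times of 306 in 10 of them (231 to 412). A pseudocount of 5 gave 176 and 4, no filter 10 and 2, and upper-quartile rescaling 198 lower. A filter at RPKM 5 gave 2 higher, the length correction 4 and protein-coding accessions only 0 (252 at an unadjusted p under 0.05). A fit of LLC and Total tumor only gave 0 and 0 (913 and 113 at an unadjusted p under 0.05), and a minimum difference of 2-fold gave 0 and 0 (440 and 10). Leaving out 1 library gave 0 to 1492 lower and 0 to 928 higher, 0 arising without LLC 1, Fibroblast 1, Fibroblast 2 or TAM 1. Where a group is left with 1 library, that library is assumed to vary like the other groups. With the replicate number as a block the counts were 254 and 5, and 230 of the 306 genes were among the 254. The pairing was checked by the correlation of same-numbered deviations, which was -0.232, -0.179 and -0.361 between Total tumor and LLC, Fibroblast and TAM, and 0.206, 0.274 and 0.162 among the sorted groups. Same-numbered sorted libraries thus deviated together, and depth also moved with the number. Those of Total tumor and LLC deviated in opposite directions. A correlation of this kind cannot tell whether same-numbered libraries share an animal or a batch. A crossed replicate block, added after the data were seen, gave 381 and 12. Of 62 named genes tested 49 were called, and each lost its call under 6 to 16 alternatives. Signs turned for genes without a call: Krt8 was at 0.024 with upper-quartile rescaling and 0.13 with quantile normalization. Leaving out 1 library gave -0.49 to 0.34 for Krt8 (0.34 without Total tumor 2, 0.12 without LLC 2) and -1.19 to 0.21 for Krt18 (0.21 without Total tumor 2). The causes were not tested. With 4.28 to 10.37 M estimated reads, genes under 1 RPKM rest on few reads.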

Other observations

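Among the 306 genes lower in LLC, 20 had their highest sorted mean in Fibroblast, and these were described after their values were seen. Plac8 stood at 109 and 128 RPKM in Total tumor, 10.2 and 29.7 in LLC and 637 and 693 in Fibroblast. Igfbp3, a binding protein of insulin-like growth factors, stood at 15.6 and 31.6 RPKM in Total tumor, 0.987 and 4.11 in LLC and 78.9 and 49.1 in Fibroblast. Hp, the hemoglobin-binding protein haptoglobin, stood at 10.5 and 28.3 RPKM in Total tumor, 0.646 and 2.61 in LLC and 30.8 and 32.9 in Fibroblast. Nid2, a basement membrane protein, stood at 3.78 and 3.04 RPKM in Total tumor, 0.435 and 0.765 in LLC and 24.0 and 30.2 in Fibroblast. Meox2, a homeobox factor of mesenchyme, stood at 1.87 and 1.71 RPKM in Total tumor, 0.082 and 0.198 in LLC and 8.24 and 7.81 in Fibroblast. In each of these 5 genes both LLC libraries lay below both Total tumor libraries (17.4% of all genes tested). The genes were picked from those called lower in LLC, so this order is a description and no support.

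Pglyrp1, a peptidoglycan-binding protein of neutrophil granules that was in no list, stood at 3.54 and 15.9 RPKM in Total tumor and was listed at 0 in both LLC libraries, with at most 1.25 in any sorted library. Xcl1, a chemokine of activated T and NK cells, stood at 1.81 and 3.83 RPKM in Total tumor and at most 0.193 in any sorted library. It was among the chemokine calls. Pglyrp1 and Xcl1 passed the filter only through their Total tumor levels, so their calls are no independent support for a difference. Gimap6, a GTPase of lymphocytes, stood at 17.1 and 4.60 RPKM in Total tumor and 0.299 and 1.01 in LLC (log2 -2.64, limma adjusted p = 0.0499).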
